A study of Mus musculus with 27 samples.

Results

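The 3 iodothyronine deiodinases (Dio1, Dio2 and Dio3) and the 2 nuclear thyroid hormone receptors (Thra and Thrb) were followed by RNA-seq in 27 mouse thyroid libraries. The 5 genes are a named set out of the 33924 gene symbols of the count table, and each was present in it. The libraries fall into 9 groups of 3. Every tumor line carries Braf(V600E), the kinase-activating allele common in papillary thyroid cancer. The Braf lines carry it alone, and the Arid1a KO, Arid2 KO and Smarcb1 KO lines also lack the named subunit of SWI/SNF, a complex that moves nucleosomes. Each of the 12 lines was grown from a dissected tumor and profiled in both arms: vehicle (Trappsol), and CH5126766 (CKI), a blocker of MEK and of its activation by RAF, at 300 nM for 8 days. The treatment protocol names bovine TSH, but its wording does not settle whether the vehicle arm had it too, and if it did not, CKI and TSH cannot be told apart. The promoter or Cre behind the Braf allele and the deletions is not stated in the labels. The last group is 3 untreated libraries marked wildtype. The series asks how SWI/SNF loss alters tumor lines and their answer to MAPK pathway blockade.

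The thyroid secretes mostly the prohormone T4. Dio1 and Dio2 remove an outer-ring iodine from T4 to give T3, the receptor ligand, and Dio3 removes an inner-ring iodine and so inactivates both. Dio1 is abundant in the normal follicular cell, Dio2 is induced there by TSH through cyclic AMP, and Dio3 is an imprinted gene best known from placenta and fetal tissue. Thra and Thrb encode receptors that bind the same DNA elements with RXR partners, repressing without ligand and activating with it. Thra also yields a splice form that does not bind hormone, and gene counts cannot separate it.

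The libraries held 18417255 to 27257703 counts, except for 2 Smarcb1 KO libraries under CKI, BS53958 with 11685000 and BS53965 with 2884130. Smarcb1 was at 0.0475 to 3.26 CPM (counts scaled to library size with TMM factors) in its knockout lines and 67.9 to 93.8 in Braf lines. Arid1a was at 62.7 to 96.1 CPM in its knockout lines and 118 to 139 in Braf lines. Arid2 ranged from 78.2 to 175 CPM in its knockout lines and from 87.9 to 130 in Braf lines, so its gene total did not check that label. Thyroid follicular markers (Tg, Slc5a5, Tshr, Pax8, Nkx2-1, Foxe1 and Hhex) summed to 227930 to 345874 CPM in wildtype and at most 1016 in any tumor line library, with Foxe1 at 0 in all Smarcb1 KO vehicle libraries. The sum hides unlike markers. Nkx2-1 stood at 220 to 272 CPM in wildtype and 192 to 236 in Arid1a KO under CKI. Foxe1 stood at 244 to 339 CPM in wildtype and at most 0.604 in Arid1a KO under CKI. The wildtype libraries are labelled a tumor cell line like the rest, yet they alone had all 5 endothelial, all 5 skeletal muscle and all 5 adipocyte markers above 1 CPM throughout. A wildtype difference therefore sets a mixture of cell types against cultured lines. In such bulk RNA, fewer cells of a type and less RNA per cell cannot be told apart.

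Promoter sequences are shown for Dio2 and Thrb, the members with the widest range among tumor lines that a RefSeq window covered. RefSeq windows on GRCm38.p6 matched 4 of the 5 members, Thrb with 2 start sites. Each sequence is the 250 bases before a transcription start, 5′ to 3′ on the gene's strand. Dio2 is from chr12:90739039-90739288 on the minus strand and Thrb from chr14:17660710-17660959 on the plus strand. Capitals mark a match, on either strand, to the cyclic AMP response element TGACGTCA in Dio2 and to the nuclear receptor half-site AGGTCA in Thrb.
Dio2: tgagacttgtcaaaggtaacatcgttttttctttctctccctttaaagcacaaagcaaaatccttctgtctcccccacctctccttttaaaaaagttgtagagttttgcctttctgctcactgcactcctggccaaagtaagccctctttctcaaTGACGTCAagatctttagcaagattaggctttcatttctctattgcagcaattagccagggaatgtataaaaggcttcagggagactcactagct
Thrb: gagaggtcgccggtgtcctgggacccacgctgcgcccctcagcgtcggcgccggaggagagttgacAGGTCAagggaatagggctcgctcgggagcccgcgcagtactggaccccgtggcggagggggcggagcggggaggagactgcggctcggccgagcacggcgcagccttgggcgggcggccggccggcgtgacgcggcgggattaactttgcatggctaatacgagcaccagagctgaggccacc
The Dio2 match lies 95 to 88 bases before the start, and 1.55% of 32851 mouse windows of this length hold that 8-letter motif. The Thrb match lies 184 to 179 bases before its start, and its shorter motif occurs in 14.0% of windows. The windows of Dio1, Dio3 and the downstream Thrb start held neither motif, and none of the 5 windows held the AP-1 site TGANTCA, which 6.75% of windows hold. A match describes these letters and is not a measured binding site.

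**Figure D1:**
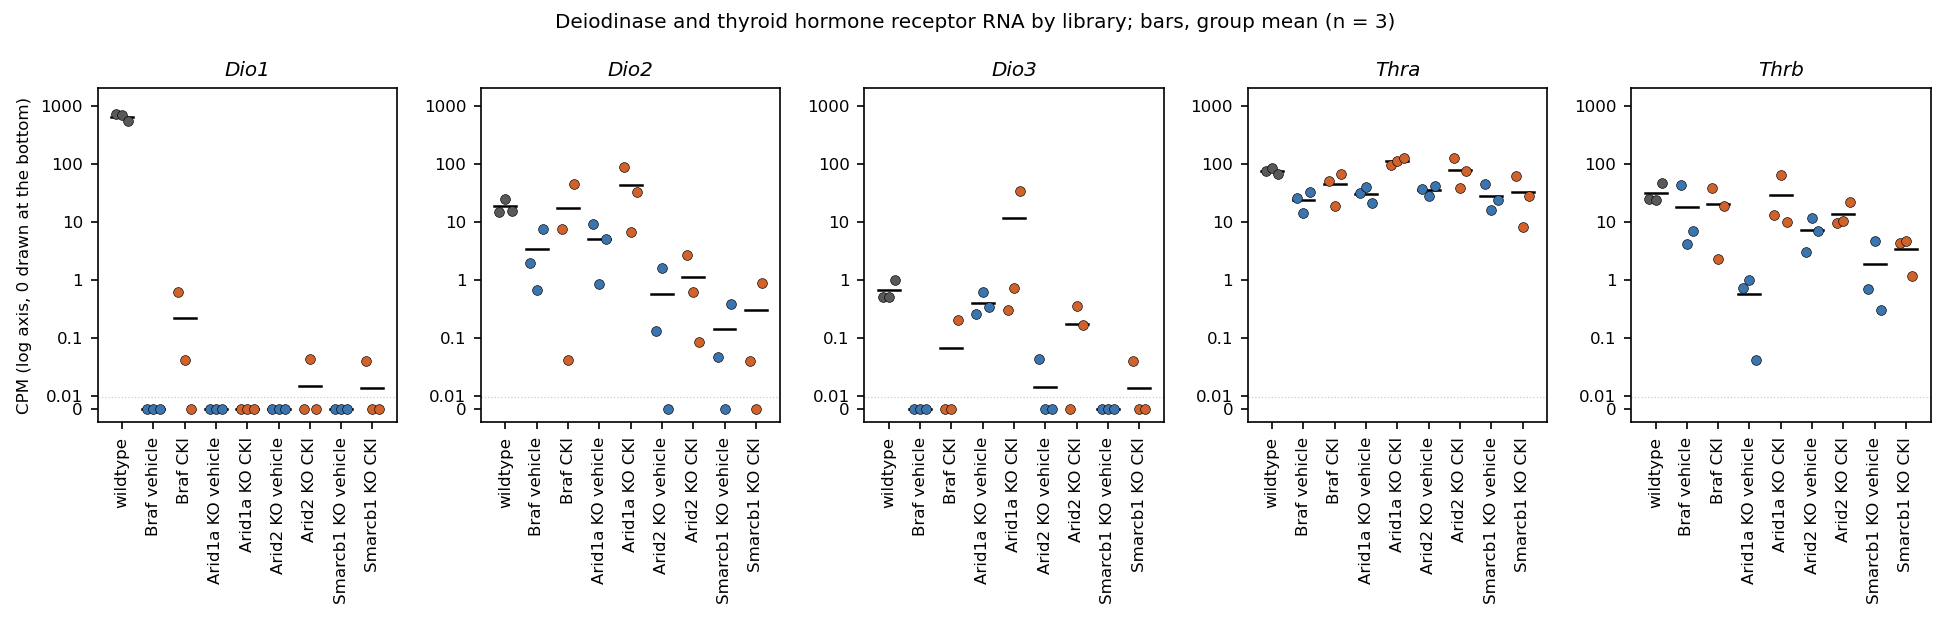
CPM of Dio1, Dio2, Dio3, Thra and Thrb in each library (points) of the 9 groups, on a log axis with 0 drawn at the bottom. Horizontal bars are group means of 3 libraries. Dio1 separates wildtype (536 to 706 CPM) from every tumor library, Thra stays above 8 CPM throughout, and Dio2, Dio3 and Thrb spread widely within groups.

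Dio1 was abundant in wildtype and nearly absent from the tumor lines. It stood at 536, 697 and 706 CPM in the 3 wildtype libraries (647 ± 95.7, SD, n = 3), and at 0 counts in all 12 vehicle libraries. Over the 3 Braf vehicle libraries a count of 0 allows up to 0.0496 CPM, taking 3 counts as the limit (counting error only), so the wildtype mean was at least 13042-fold higher. Little Dio1 was seen in the CKI arm: line B47275 of the Braf group had 18 counts, or 0.635 CPM, and lines B48051, AB52980 and BS53736 had 1 count each. The other 8 CKI libraries were at 0. Dio1 did not pass the filter on low counts with the 24 tumor libraries, and passed with all 27 through the wildtype group, where it is high.

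Before the tests on each gene, the number of members called can be set beside the share of all genes called. Genes were called by edgeR's quasi-likelihood test where the p-value, adjusted by Benjamini and Hochberg's method across every gene tested, was under 0.05. Among tumor lines 15634 genes were tested, including all members but Dio1. In vehicle, against Braf, 1 of 4 members was called in Arid1a KO (3.63% of all genes), 0 in Arid2 KO (0.0512%) and 0 in Smarcb1 KO (18.1%). For CKI against vehicle, 0 of 4 were called in Braf (0% of all genes), 2 in Arid1a KO (13.9%), 0 in Arid2 KO (0.141%) and 0 in Smarcb1 KO (0.032%), and 2 were called in the mean over the 4 genotypes (27.2%). Under CKI, against Braf, 0 were called in Arid1a KO (0.736%), 0 in Arid2 KO (0.064%) and 1 in Smarcb1 KO (23.1%). The difference between a knockout's CKI response and that of Braf called 0 members and 0% of genes for each of the 3 knockouts. The shares of all genes called moved when a line was left out, which also leaves fewer lines in its group. The 2177 genes called for CKI in Arid1a KO became 555, 358 and 202 without BA45198, BA47473 and BA49112. They were 3509 with the compared groups alone in the fit and 5053 with the cell line as a block. The 567 called for Arid1a KO in vehicle became 68 without BA47473 and 1312 without B52482, and the 8 for Arid2 KO became 0 without AB51189 or B47275 and 410 without B52482. Where edgeR called 0 members, an unadjusted p under 0.05 held for 2 in Smarcb1 KO vehicle, 2 in Arid1a KO under CKI, 1 in Arid2 KO under CKI, 1 in the Arid1a KO response difference and 0 elsewhere. DESeq2 called 2 members in Smarcb1 KO vehicle (Dio2 and Thrb, both lower), 1 in Arid1a KO under CKI (Dio3, higher) and 0 in the rest of these. Where edgeR called 0 genes in all, 1744 passed an unadjusted p under 0.05 for CKI in Braf and 801, 124 and 659 for the Arid1a, Arid2 and Smarcb1 response differences, and DESeq2 called 316, 37, 7 and 43.

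Against wildtype, with 16821 genes tested, 3 of 5 members were called lower in Braf vehicle (46.5% of all genes called), 1 of 5 in Braf under CKI (41%) and 5 of 5 in the mean of the 4 vehicle groups (60.8%). These contrasts call a large share of all genes, so the counts do not set the members apart from the rest. Each count includes Dio1, which had to differ since it was tested through its high group, and the counts are given as a description only.

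Dio2, the cyclic AMP-induced activating enzyme, varied widely among the lines. In vehicle the Braf lines B47275, B48051 and B52482 stood at 1.93, 0.670 and 7.68 CPM, and under CKI at 7.55, 0.0416 and 44.9. B48051 had 1 count under CKI, so the Braf group holds both directions. In Arid1a KO, lines BA45198, BA47473 and BA49112 went from 9.13, 0.852 and 5.03 CPM in vehicle to 88.1, 6.58 and 33 under CKI. All 3 were higher under CKI, by 9.64-, 7.73- and 6.56-fold, although the groups' ranges overlap because the lines start from different levels. Arid2 KO lines AB51189, AB52980 and AB55694 went from 0.132, 1.58 and 0 CPM to 2.68, 0.625 and 0.0858. The Smarcb1 KO group had the lowest means, with ranges that overlap those of Arid2 KO: BS53736 went from 0.0475 to 0.0410 CPM, BS53958 was at 0 in both arms, and BS53965 went from 0.387 to 0.890 (9 and 3 counts). Wildtype stood at 14.8, 15.7 and 25 CPM, inside the CKI ranges of Arid1a KO and of Braf.

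In Arid1a KO the log2 change of Dio2 under CKI was 3.09 ± 1.77 (SE), which edgeR did not call (adjusted p = 0.246). With the cell line as a block, which compares each line with itself, it was 2.99 and was called (adjusted p = 0.0368). Under CKI, Dio2 was lower in Smarcb1 KO than in Braf, at 0.310 ± 0.502 against 17.5 ± 24 CPM (SD, n = 3 each), with a log2 difference of -6.82 ± 2.38 (edgeR adjusted p = 0.0463). The ranges overlap, since B48051 lies among the Smarcb1 KO values. That call was lost without B47275, B52482, BS53736, BS53958 or BS53965 (adjusted p = 0.0726, 0.161, 0.145, 0.141 and 0.0524), and without both shallow libraries (0.236). In vehicle the same difference was -4.49 ± 2.01 and was not called (edgeR adjusted p = 0.125). The TSH receptor gene Tshr, a follicular marker, was also lower in Smarcb1 KO than in Braf under CKI (edgeR log2 difference -6.27, adjusted p = 0.0413). That comparison called 23.1% of all genes (1572 higher and 2046 lower). In it 3 of 7 follicular markers (median log2 difference -4.29) and 3 of 7 fibroblast markers (median -2.15) were called lower. In vehicle, where 18.1% of all genes were called, 1 and 2 of 7 were. The part of these markers in the Dio2 difference was not tested. Against wildtype, Dio2 was lower in the mean of the 4 vehicle groups (log2 difference -4.05 ± 1.07, edgeR adjusted p = 0.00280), but not called in Braf vehicle alone (-2.43, adjusted p = 0.231).

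**Figure D2:**
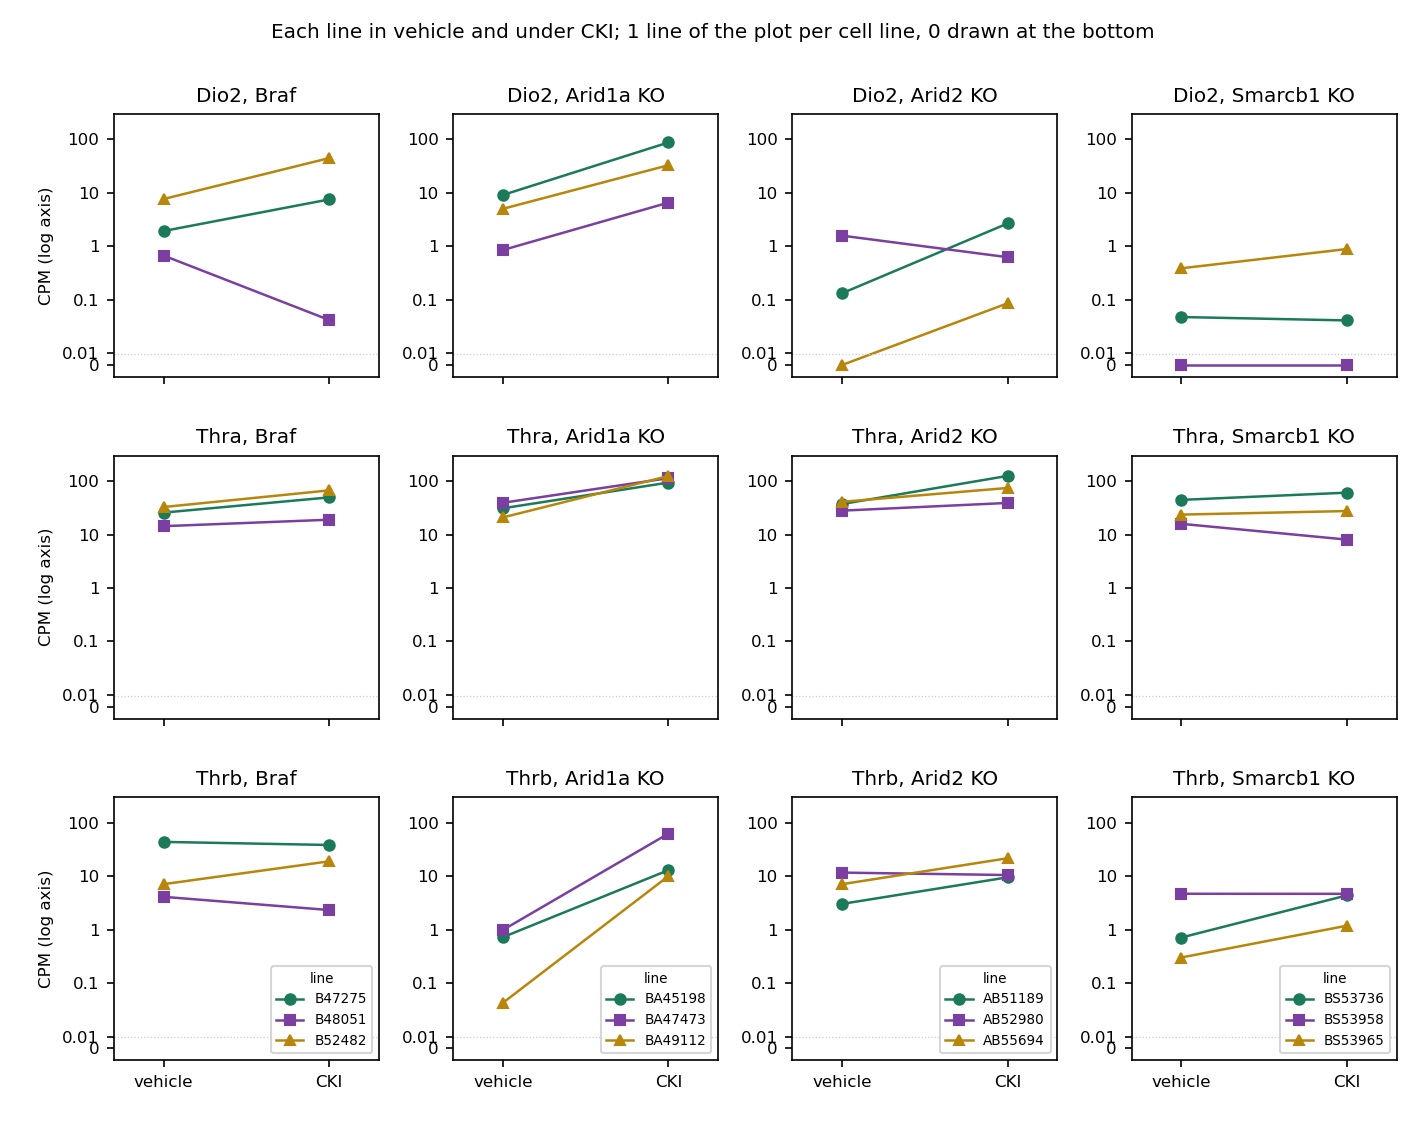
CPM of Dio2, Thra and Thrb (log axis, 0 at the bottom) in vehicle and under CKI, with each connecting line one cell line and each column a genotype. All 3 Arid1a KO lines rise for all 3 genes, while Dio2 and Thrb go both ways in the Braf lines.

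Dio3, the inactivating enzyme, was at or near 0 in most libraries and stood out in Arid1a KO. In vehicle it was at 0 counts in all Braf and Smarcb1 KO libraries and had 1 count in 1 Arid2 KO library. The Arid1a KO lines BA45198, BA47473 and BA49112 had 5, 14 and 8 counts, or 0.258, 0.628 and 0.341 CPM (0.409 ± 0.194, SD, n = 3). That mean is at least 8.25-fold above Braf vehicle, taking 3 counts over the Braf group as the limit, and the edgeR test did not call it (adjusted p = 0.174). Under CKI the same lines stood at 0.302, 0.742 and 34.3 CPM. The last value, line BA49112 with 807 counts against 8 in vehicle, was 101-fold higher, while the other lines moved by 1.17- and 1.18-fold. That 1 library held 97.0% of the group's summed level, and the group's change was not called (edgeR adjusted p = 0.0711). With all 27 libraries in the fit it was called (log2 change 4.83, adjusted p = 0.0478), as was the difference between Arid1a KO and Braf under CKI (7.33, adjusted p = 0.0498). Among tumor lines Dio3 passed the filter on low counts only through Arid1a KO libraries, where it is high. With all 27 libraries the wildtype group adds to these. The tests of Dio3 are therefore a description only. In the mean CKI change over the 4 genotypes Dio3 was not called by edgeR (adjusted p = 0.0694) and was called higher by DESeq2 (adjusted p = 0.0194). Outside Arid1a KO the highest tumor value was 0.357 CPM, in AB52980 under CKI. Wildtype held 0.518, 0.501 and 1.02 CPM, which was above every vehicle library of the Braf, Arid2 KO and Smarcb1 KO groups. Against wildtype Dio3 was called lower in Braf vehicle (edgeR adjusted p = 0.0219) and in the mean of the 4 vehicle groups (0.00227). The first of these calls was lost without B47275, B48051 or B52482 (adjusted p = 0.0570, 0.0546 and 0.0506).

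Dio3 lies at one end of the imprinted Dlk1-Dio3 domain, which also holds the paternally expressed Dlk1 and Rtl1 and the maternally expressed noncoding RNAs Meg3, Rian and Mirg. Dlk1, a membrane protein of the Notch ligand family, was at 84.3, 137 and 171 CPM in Arid1a KO vehicle and at most 1.18 CPM in any other vehicle line. The groups do not overlap, and edgeR called Dlk1 higher than in Braf both in vehicle (log2 difference 8.26 ± 1.59, adjusted p = 0.0117) and under CKI (9.08 ± 1.65, adjusted p = 0.0191). It was the only 1 of the 6 domain genes tested that was called in each, beside 3.63% and 0.736% of all genes. The median log2 difference over those 6 was 6.68 in vehicle and 6.66 under CKI, against -0.01 and -0.02 over all genes. Of the 6, Dio3, Rtl1 and Mirg passed the filter on low counts only with the Arid1a KO libraries, where they are high. The medians were thus partly fixed by the filter and are a description only. BA49112 under CKI had the highest level of Dio3, Dio3os, Dlk1, Meg3 and Rian among all 27 libraries (34.3, 8.59, 376, 225 and 178 CPM). Domain genes did not always go with Dio3: BS53965, a Smarcb1 KO line, had Meg3 at 68.4 and Rian at 125 CPM in vehicle with Dio3 at 0. Dio3os, transcribed from the opposite strand nearby, had a Pearson r of 0.88 with Dio3 over the 27 libraries on the log2 CPM scale, a description in which lines appear in both arms and most values are 0. The models of Dio3 and Dio3os do not overlap in RefSeq.

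**Figure D3:**
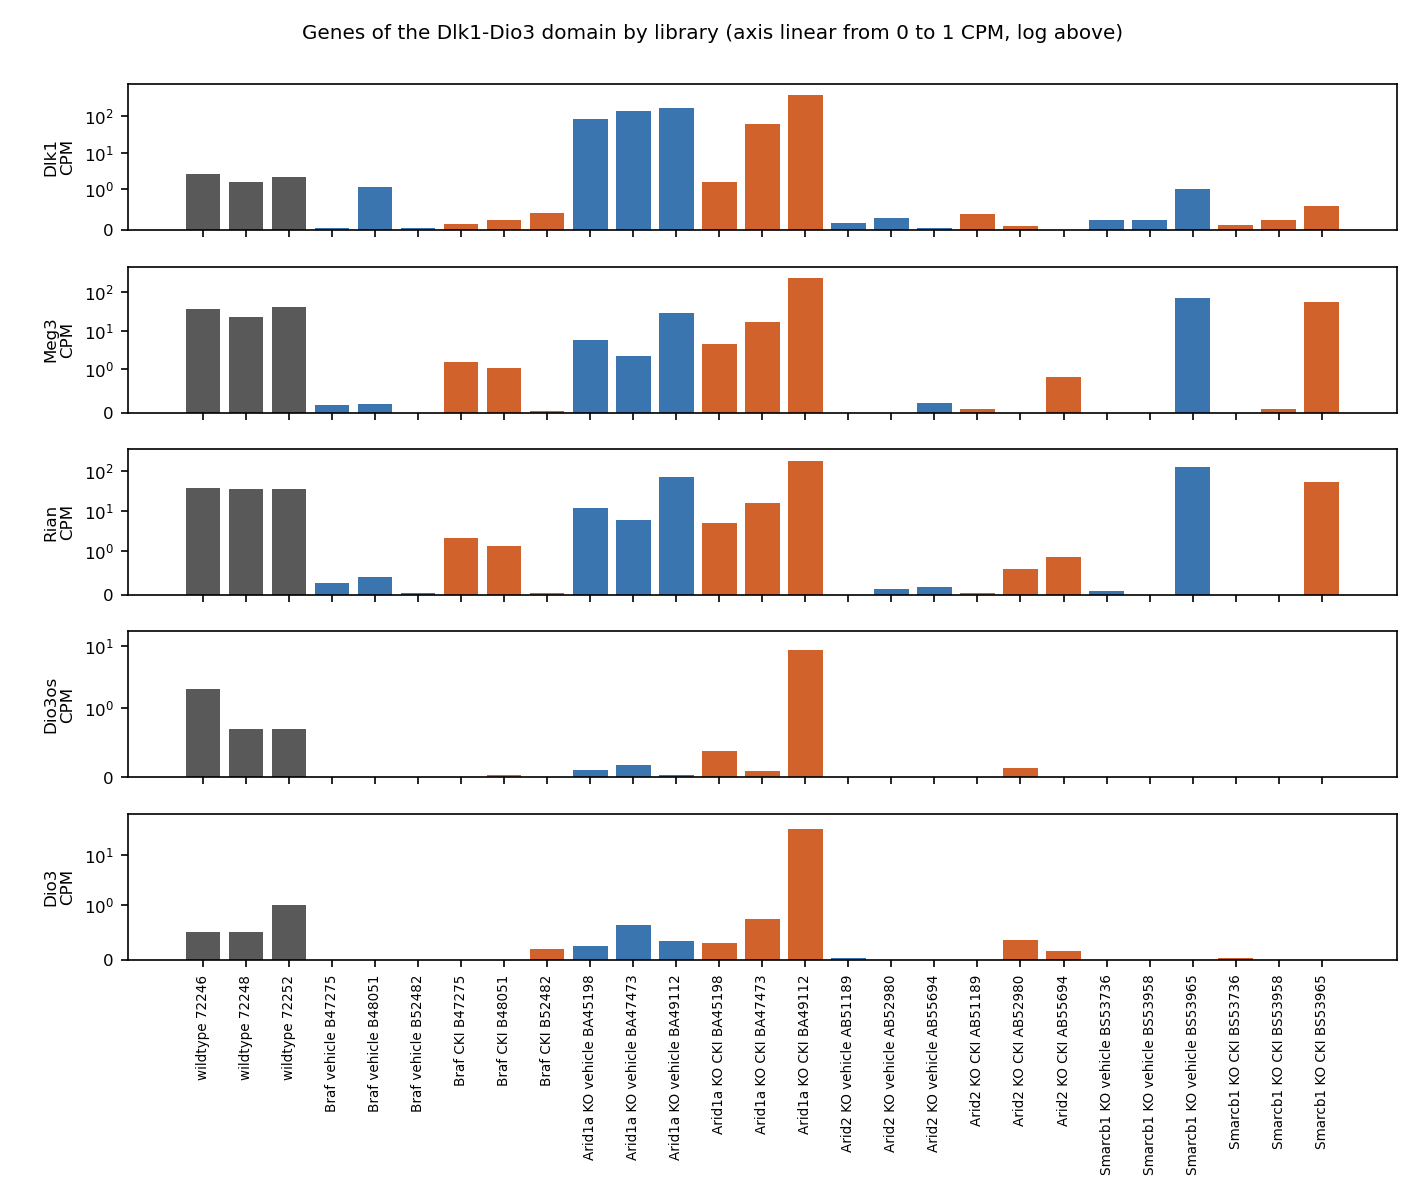
CPM of Dlk1, Meg3, Rian, Dio3os and Dio3 in each of the 27 libraries, as bars from 0 on an axis that is linear to 1 CPM and log above it (grey wildtype, blue vehicle, orange CKI). Dlk1 is high in the Arid1a KO lines except BA45198 under CKI (1.55 CPM), and Dio3 reaches 34.3 CPM only in BA49112 under CKI.

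Fibroblast markers had higher sums in Arid1a KO than in Braf in vehicle, while under CKI the ranges overlap. The 7 markers (Dcn, Col1a1, Col1a2, Col3a1, Pdgfra, Dpt and Lum) summed to 1306 to 3653 CPM in Arid1a KO vehicle and 1901 to 6739 under CKI, against 5.46 to 174 and 21.9 to 2063 in Braf. None of the 7 was at 0 in all libraries of a group. Of the 7, edgeR called 2 higher in Arid1a KO than in Braf in vehicle (3.63% of all genes called) and 1 under CKI (0.736%). The exception by group mean was Col1a1, at 4.51 CPM in Arid1a KO and 19.4 in Braf in vehicle, and at 672 and 676 under CKI. Under CKI the marker sums also stood higher in Arid2 KO, at 514 to 1142 CPM against 20.2 to 32.4 in vehicle. In the mean CKI change 4 of 7 were called higher, where 27.2% of all genes were called (2121 higher and 2132 lower). Wildtype held 2017 to 4004 CPM. Endothelial markers reached 666 CPM in 1 Smarcb1 KO vehicle library and skeletal muscle markers 1628 CPM in 1 Arid2 KO library under CKI. The endothelial sum was nearly all Cdh5, which reached 659 CPM in that group. Pecam1 was there at most 6.74 CPM, Kdr at most 1.03, and Emcn at 0. The part of these markers in the levels of Dio2, Dio3 and the receptors was not tested.

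Thra, the more broadly expressed receptor gene, was detected at 8.06 CPM or more in every library and was higher under CKI in 11 of 12 lines. In Arid1a KO, BA45198, BA47473 and BA49112 went from 31.1, 39.4 and 20.9 CPM to 94.2, 114 and 125, and the arms do not overlap. In Braf, B47275, B48051 and B52482 went from 25.8, 14.4 and 32.8 CPM to 49.7, 19.0 and 67.3. In Arid2 KO, AB51189, AB52980 and AB55694 went from 37.3, 28 and 41.0 CPM to 126, 39.1 and 74.6. Both of these groups overlap between arms, although each line moved up, by between 1.32- and 3.37-fold. In Smarcb1 KO, BS53736 and BS53965 went from 44.6 and 23.7 CPM to 60.9 and 27.6, and BS53958, the exception, went from 15.9 to 8.06. The CKI values of BS53965 and BS53958 come from the shallow libraries, with 93 and 98 Thra counts.

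The mean log2 change of Thra under CKI over the 4 genotypes was 1.04 ± 0.29 (SE, edgeR adjusted p = 0.0148), against a median of 0.03 over all genes. It was 1.88 ± 0.60 in Arid1a KO (edgeR adjusted p = 0.0446), where each line rose by 2.9- to 5.96-fold. The change was not called in Braf (0.91 ± 0.59, adjusted p = 0.596), Arid2 KO (1.17 ± 0.59, adjusted p = 0.40) or Smarcb1 KO (0.21 ± 0.58, adjusted p = 0.981). This fit does not pair the arms of a line, and with the cell line as a block Thra was still not called in these groups. The Arid1a KO change did not differ detectably from that of Braf (difference 0.97 ± 0.83, edgeR adjusted p = 0.999997). Leaving out any 1 Arid1a KO line ended the Arid1a KO call (adjusted p = 0.15 without BA45198, 0.148 without BA47473 and 0.285 without BA49112), as did testing without a filter on low counts (0.0646). Leaving out AB51189 ended the call on the mean (0.0511). Between genotypes Thra differed little in vehicle: the knockouts' log2 differences from Braf were 0.32, 0.55 and 0.19 for Arid1a, Arid2 and Smarcb1, each with an SE of 0.58, and none was called.

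Wildtype held Thra at 65.8 to 83.6 CPM (75.2 ± 8.94, SD, n = 3). The Braf vehicle lines were lower than wildtype, with a log2 difference of -1.63 ± 0.57 (edgeR adjusted p = 0.0247), and no Braf vehicle library reached the wildtype range. That call was lost without B47275, B48051 or the wildtype library WT_72248 (adjusted p = 0.0642, 0.0767 and 0.0537). The mean of the 4 vehicle groups was also lower (-1.36 ± 0.40, edgeR adjusted p = 0.00659). Under CKI the Braf lines were at -0.73 ± 0.56 from wildtype, which was not called (adjusted p = 0.309). Ordered by mean level, Thra ran from Arid1a KO under CKI (111 CPM), Arid2 KO under CKI (79.8), wildtype and Braf under CKI (45.3) down to the Braf vehicle group (24.3), and the ranges of each pair of neighbours in the order of the 9 groups overlap.

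The Thra gene overlaps the 3′ end of Nr1d1, a clock repressor on the opposite strand, and whether the authors counted reads by strand is not stated in the labels. Reads of the shared stretch cannot then be assigned to one gene by their counts. Nr1d1 was itself higher under CKI in 11 of 12 lines, with a mean log2 change of 1.16 ± 0.28 (edgeR adjusted p = 0.00577). Its r with Thra over the 27 libraries was 0.67.

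Thrb, the receptor that mediates feedback in the pituitary and hormone action in liver, varied far more than Thra. In vehicle the Braf lines B47275, B48051 and B52482 stood at 44.0, 4.12 and 7.12 CPM. The Arid1a KO lines BA45198, BA47473 and BA49112 stood at 0.722, 0.987 and 0.0427, the last being 1 count. The groups do not overlap: every Arid1a KO vehicle value is below 1 CPM and every Braf value above 4. Arid2 KO lines AB51189, AB52980 and AB55694 had 3.04, 11.7 and 7.11 CPM, and the Smarcb1 KO lines BS53736, BS53958 and BS53965 had 0.712, 4.70 and 0.301. Wildtype stood at 24.3, 24.5 and 46.5 CPM.

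Under CKI the Arid1a KO lines reached 13, 63.0 and 10.1 CPM, so that the arms are far apart. BA45198 and BA47473 rose 18.0- and 63.9-fold, and no fold is given for BA49112, which had 1 count in vehicle and 237 under CKI. The Braf lines went to 38.5, 2.33 and 19.1 CPM, down in B47275 and B48051 and up in B52482. The Arid2 KO lines went to 9.55, 10.5 and 21.7 CPM, up in AB51189 and AB55694. The Smarcb1 KO lines went to 4.38, 4.69 and 1.19 CPM (the last 4 counts), and BS53958 did not move. In all, 8 of 12 lines were higher under CKI.

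In vehicle Thrb was lower in Arid1a KO than in Braf by 4.98 ± 1.36 on the log2 scale (edgeR log2 difference -4.98, adjusted p = 0.0490). That call was lost without BA45198, BA47473, BA49112, B47275 or B48051 (adjusted p = 0.148, 0.142, 0.173, 0.217 and 0.0544), and without B47275 the difference was -3.24. It was also lost without a filter on low counts (0.0639) and with the 6 compared libraries alone in the fit (0.166). Smarcb1 KO was at -3.27 ± 1.24 from Braf in vehicle (adjusted p = 0.0733) and Arid2 KO at -1.33 ± 1.15 (0.722), neither called. The CKI change in Arid1a KO was 5.63 ± 1.40 (edgeR adjusted p = 0.0146), and it was no longer called without BA45198, BA47473 or BA49112 (0.0692, 0.111 and 0.0871). The mean change over the 4 genotypes was 1.89 ± 0.59 (edgeR adjusted p = 0.0247), and that call was lost without BA47473, AB51189, AB55694, B52482 or BS53736 (0.0610, 0.0577, 0.0640, 0.0601 and 0.0675). The CKI response of Arid1a KO exceeded that of Braf by 5.51 ± 1.73, which was not called (edgeR adjusted p = 0.698, and 0.0595 with the cell line as a block). Under CKI the Arid1a KO and Braf lines overlap, with a log2 difference of 0.53 ± 1.13 (adjusted p = 0.893).

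**Figure D4:**
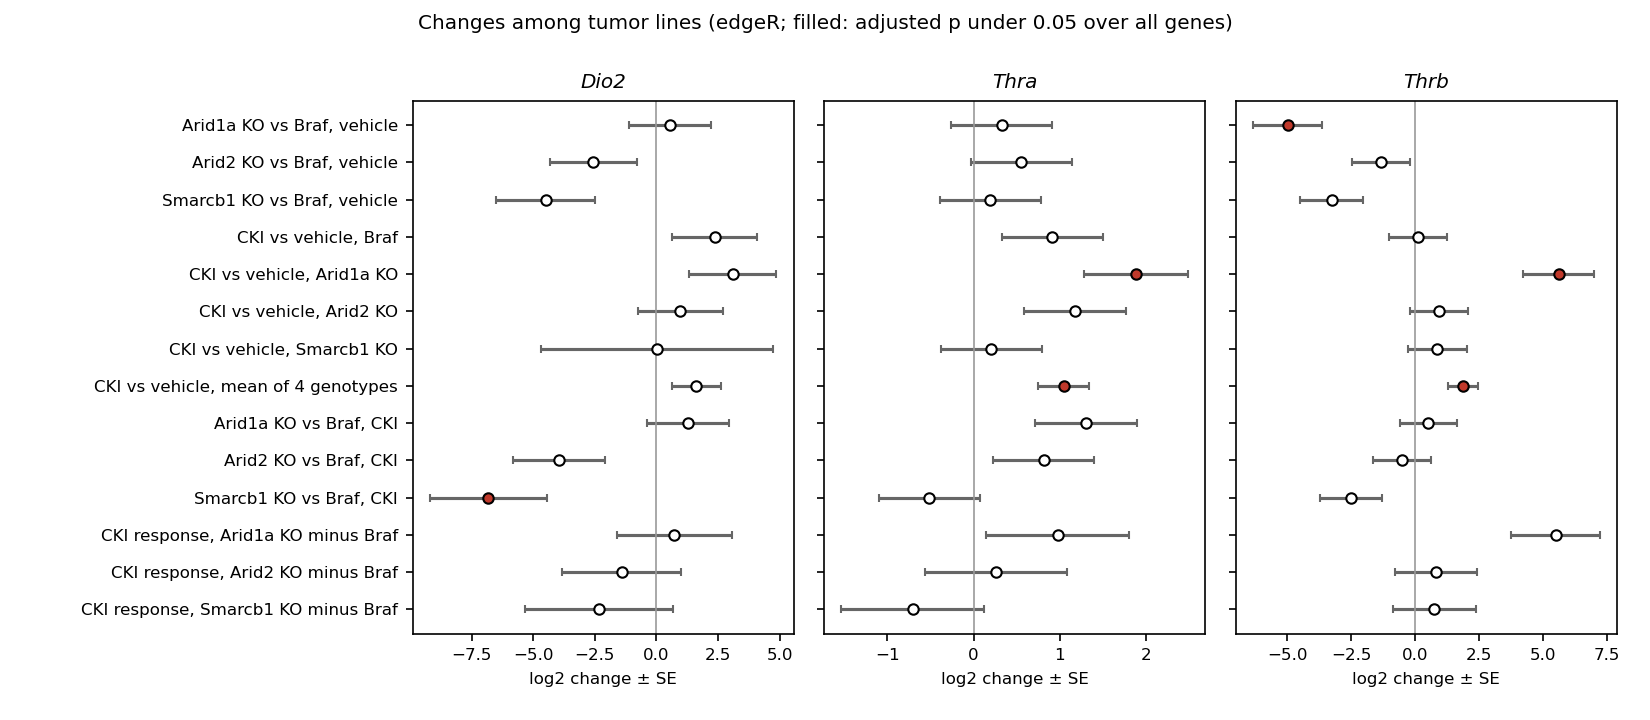
Log2 changes of Dio2, Thra and Thrb with approximate SE for the 14 comparisons among tumor lines, each panel on its own scale. Filled points passed an adjusted p under 0.05. For Thrb, the Arid1a KO lines lie at -4.98 from Braf in vehicle and at 5.63 for CKI against vehicle, and at 0.53 from Braf under CKI.

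Per kilobase of exon, on GENCODE M21 models, Thra exceeded Thrb in every library. Before the division by length, Thrb was the higher in the Braf line B47275 in vehicle, at 44.0 against 25.8 CPM. The ratio of Thra to Thrb per kilobase was 3.02 to 7.33 in wildtype and 1.25 to 9.83 in Braf vehicle. It was 85.1, 91.7 and 1047 in Arid1a KO vehicle, the highest resting on the single Thrb count of BA49112, and 3.86 to 26.4 in those lines under CKI. Smarcb1 KO vehicle held both kinds, with 7.21 in BS53958 and 134 and 168 in the other lines. The Arid1a KO vehicle values lie above the whole wildtype and Braf ranges. Against wildtype, Thrb was lower in the mean of the 4 vehicle groups (edgeR log2 difference -3.18 ± 0.74, adjusted p = 0.000950) and was not called in Braf vehicle (-0.79, 0.575). Every pair of neighbours in the order of group means overlaps in range, from wildtype (31.8 ± 12.8 CPM, SD, n = 3) to Arid1a KO vehicle (0.584 ± 0.487).

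Carriers of thyroid hormone were represented by 9 genes, of which 5 passed the filter among tumor lines. Under CKI 2 of the 5 fell in the mean change and none rose, where 27.2% of all genes were called (2121 higher and 2132 lower). Slc7a5, the light chain of an amino acid exchanger that also carries T3 and T4, fell by 1.89 on the log2 scale (edgeR adjusted p = 0.00134) and was lower in 12 of 12 lines. Its level was 217 to 598 CPM in Arid1a KO vehicle and 29.9 to 53.2 under CKI, without overlap. Slco4a1, an organic anion transporter, fell by 4.63 (edgeR adjusted p = 0.00187), also in 12 of 12 lines. In Arid1a KO alone, Slc3a2, the heavy chain that pairs with Slc7a5, rose by 1.17 (edgeR adjusted p = 0.0481), against the direction of its partner. Slc7a5 was higher in Smarcb1 KO than in Braf under CKI, by 2.32 (edgeR adjusted p = 0.0301). In wildtype it stood at 4.83 to 10.7 CPM, lower than in every tumor library.

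Receptor partners and coregulators changed by small amounts under CKI. Of 14 tested, 6 rose and 2 fell in the mean change, beside the 27.2% of all genes called there, with a list median of 0.15 against 0.03 over all genes. Ncoa2 and Ncoa1, p160 coactivators, rose by 0.70 and 0.67 (edgeR adjusted p = 0.00160 and 0.0380), and Crebbp, a histone acetyltransferase, by 0.30. Ncoa3, the remaining p160 coactivator, fell by 0.57 (edgeR adjusted p = 0.00291), in 11 of 12 lines. Ncoa3 also separated Smarcb1 KO, at 203 to 408 CPM in vehicle against 43.4 to 56.0 in Braf (edgeR log2 difference 2.69, adjusted p = 1.49e-05). Ncoa1 was lower there by 1.87 (log2 difference -1.87, adjusted p = 0.0126). Rxrg, a dimer partner of both receptors, was at 3.97 to 7.07 CPM in wildtype and at 0 counts in all tumor libraries except for 1 count in an Arid2 KO line under CKI.

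Among 8 tested genes known to respond to thyroid hormone, 2 rose and 1 fell in the mean CKI change, which called 27.2% of all genes. The list median was 0.31 against 0.03 over all genes. Klf9, a transcription factor, rose by 1.19 ± 0.19 (edgeR adjusted p = 0.000401), and Me1, malic enzyme, by 1.11 ± 0.18 (0.000438), each in 12 of 12 lines. Atp2a2, the sarcoplasmic reticulum calcium pump, fell by 0.34 (edgeR adjusted p = 0.0288). These genes answer other signals as well as the hormone, and the hormone content of the medium is not given in the labels. In Arid1a KO the changes of Klf9 and Me1 were 1.69 and 2.15 (edgeR adjusted p = 0.00953 and 0.00259), and Me1 went from 14.5 to 31.4 CPM in vehicle to 109 to 113 under CKI. In vehicle Me1 was lower in Arid1a KO than in Braf (edgeR log2 difference -1.58, adjusted p = 0.0258). Thrsp, a lipogenic hormone target, was at 217 to 359 CPM in wildtype and below 1 CPM in all tumor libraries. Adipocyte markers summed to 1017 to 3258 CPM in wildtype and at most 7.35 in a tumor library, and their part in that difference was not tested.

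The deiodinases are selenoproteins, and Dio2 protein is turned over by ubiquitination. Of 10 genes for selenocysteine insertion and Dio2 turnover, 2 rose in the mean CKI change, which called 27.2% of all genes, and the list median was -0.07 against 0.03. They were Wsb1, the ubiquitin ligase adaptor for Dio2 (0.41, edgeR adjusted p = 0.00203), and Usp33, a deubiquitinase that acts on it (0.32, adjusted p = 0.00480). Usp20, the related deubiquitinase, was lower than in Braf in Arid1a KO vehicle (log2 difference -1.07, edgeR adjusted p = 0.0257) and in Smarcb1 KO vehicle (-1.51, adjusted p = 0.000893). Sepsecs, which makes selenocysteinyl-tRNA, was higher in Smarcb1 KO vehicle (0.94, edgeR adjusted p = 0.0181). Of the 10 genes, 2 were called higher and 2 lower in Smarcb1 KO vehicle, where 18.1% of all genes were called. In Arid1a KO vehicle 1 of the 10 was called, beside 3.63% of all genes.

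The genes whose pattern was most like each member were found by Pearson r of log2 CPM over the 24 tumor libraries of 12 lines, among 13148 genes. For Dio2 they were Cd302, Sil1 and Mrc2 (r = 0.87, 0.85 and 0.84). For Dio3 they were Slit3, Irf5 and A2m (0.81, 0.76 and 0.76) with Spearman values of 0.78, 0.43 and 0.61. For Thra they were 9130213A22Rik, Atat1 and Mbip (0.91, 0.90 and 0.90), and for Thrb Etfdh, BC029214 and Stim1 (0.82 each). Among the members themselves the highest r over the same libraries was 0.51, between Dio3 and Thra, and that of Thra and Thrb was 0.44. These values are descriptions over libraries that share lines.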

How the data were processed

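RNA-seq libraries (TRIzol, TruSeq RNA kit, per the labels' protocols) were deposited by the authors as raw counts per gene symbol. STAR 2.4, HTSeq 0.6.1, DESeq2 and build mm9 are named, without roles, in the submitters' processing notes. The annotation, the use of strand and any filter are not given in those notes or labels. The counts were tested with edgeR 4.0.16 in R 4.3.3 (TMM scaling, filterByExpr by group, quasi-likelihood F test, Benjamini-Hochberg over all genes, threshold 0.05). All 24 tumor libraries shared 1 fit for comparisons among lines, and all 27 for those with wildtype. SE is the log2 change divided by the square root of F, an approximation. Levels are CPM with TMM factors of the 27 libraries, and log2 CPM uses a prior count of 2. The 2 arms of a line come from the same culture line, and their deviations from group means correlated at 0.259 to 0.773 in 12 of 12 lines, so a fit with the line as a block was an alternative. Other alternatives were DESeq2 1.42.0, RLE factors, other filters, other libraries in the fit, and each line left out. The 3 lines of a group are separate tumors. The test was run on simulated counts for Arid1a KO against Braf in vehicle only. These were drawn without an effect of the line, with changes put only into better expressed genes. They therefore do not check the comparisons of CKI with vehicle or genes at low counts such as Dio3.

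The members and gene lists were chosen with earlier results of these data known. Named genes are all 5 members, up to 4 called genes per pathway list and comparison with the smallest adjusted p, the domain and overlapping genes, and the 3 nearest patterns per member. Promoters came from RefSeq on GRCm38.p6 and exon lengths from GENCODE M21 basic models, both a different build from the counts. One follicular marker of the list is not reported here.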

Additional observations from a re-analysis of the deposited data

How the results depend on the processing

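The alternatives were followed for the members and for the counts over all genes. Calls on the other named genes, such as Dlk1, Tshr, Slc7a5, Ncoa3, Klf9 and Me1, were not checked in this way. No called result of a member changed direction under any alternative run, while 30 alternatives to results not called did. The number of members called changed as follows. For Arid1a KO against Braf in vehicle it was 0 without a filter on low counts and 0 with the compared groups alone, and 0 to 1 with a line left out. For Smarcb1 KO in vehicle it was 2 with DESeq2, and 0 to 1 with a line left out (1 without B48051 or BS53958). For CKI in Arid1a KO it was 1 without a filter, 0 with any line of it left out, and 3 with a replicate block for cell line, where Dio2 is added. For the mean CKI change it was 0 to 2 with a line left out. For Arid1a KO under CKI it was 1 with all 27 libraries in the fit, 1 with DESeq2, and 0 to 1 with a line left out (1 without B52482). For Smarcb1 KO under CKI it was 0 without a filter, 0 with the compared groups alone, 0 without the 2 shallow libraries, and 0 to 1 with a line left out. Requiring at least 1 CPM in at least 6 libraries removes Dio1 and Dio3 from the test, and left 1 member called in Braf vehicle against wildtype, 0 in Braf under CKI and 3 in the mean of the vehicle groups. With DESeq2 0 were called in Braf under CKI against wildtype (Dio1, log2 difference -11.61), and with a library left out 1 to 3 in Braf vehicle (1 without B47275 or B48051) and 1 to 2 under CKI (2 without B52482).

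By gene, Thrb in Arid1a KO vehicle was -4.97 without a filter and -4.99 with the compared groups alone, and ran from -5.58 to -3.24 with a line left out. Under CKI in Arid1a KO, Thra was 1.87 without a filter and 1.58 to 2.08 with a line left out, and Thrb 4.93 to 6.14. In the mean CKI change, leaving out a line gave 0.93 to 1.09 for Thra and 1.72 to 2.31 for Thrb. Dio2 in Smarcb1 KO under CKI was -6.87 without a filter, -6.72 with the compared groups alone, -8.62 without the 2 shallow libraries, and -9.13 to -4.62 with a line left out. In Braf vehicle against wildtype, leaving out a library gave -1.90 to -1.36 for Thra and -7.08 to -6.50 for the fitted Dio3 value, which depends on the prior count. The cause of these changes was not tested, beyond the removal of genes or libraries each alternative makes. Of 645 alternatives to the 56 results not called, 604 did not turn the direction and left them not called. Among these are log2 values of 0, which have no direction. In addition, 30 turned the direction and left them not called, and 11 made them calls. These last include Dio3 under CKI in Arid1a KO with all 27 libraries in the fit (4.83), where 3 members were called.

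The results that turned direction were these, as log2 values. CKI in Smarcb1 KO was 0.04 for Dio2, and -0.016 with all 27 libraries, -0.021 without a filter and -1.77 without the 2 shallow libraries. Without those libraries Thra in Smarcb1 KO was 0.36 from Braf under CKI and 0.19 in the response difference, rather than -0.51 and -0.71. With the block for cell line, Thra in Smarcb1 KO was -0.078 under CKI and the Arid1a KO response difference of Dio3 was -1.29. With DESeq2 the Arid2 KO response difference of Dio3 was 0.58. With a line or library left out, vehicle differences from Braf ran from -0.22 to 1.94 for Dio2 in Arid1a KO, -1.85 to 0.40 for Thrb in Arid2 KO and -0.28 to 0.47 for Thra in Smarcb1 KO. CKI changes ran from -0.23 to 0.94 for Thrb in Braf, -1.15 to 4.24 for Dio2 in Arid2 KO and -0.20 to 0.38 for Thra in Smarcb1 KO. Differences from Braf under CKI ran from -0.78 to 1.42 for Thrb in Arid1a KO, -1.06 to 0.38 for Thrb in Arid2 KO and -3.65 to 2.28 for Dio3 in Smarcb1 KO. Response differences ran from -3.41 to 4.83 for Dio3 in Arid1a KO. In Arid2 KO they ran from -3.52 to 1.90 for Dio2, -1.94 to 3.16 for Dio3, -0.19 to 0.45 for Thra and -0.016 to 1.5 for Thrb. In Smarcb1 KO they ran from -3.65 to 2.28 for Dio3 and -0.089 to 2.42 for Thrb. Dio2 in Braf under CKI ran from -2.28 to 0.49 against wildtype.

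Counts over all genes depended more on the method. The block raised CKI calls from 0 to 388 in Braf, 2177 to 5053 in Arid1a KO, 22 to 981 in Arid2 KO, 5 to 165 in Smarcb1 KO and 4253 to 6707 in the mean, and it changed no member's call other than that of Dio2 in Arid1a KO. DESeq2 called 1571 genes rather than 567 for Arid1a KO in vehicle, 601 rather than 8 for Arid2 KO, 984 rather than 115 for Arid1a KO under CKI and 444 rather than 10 for Arid2 KO under CKI. With the compared groups alone these were 24, 0, 5 and 0, and those of Smarcb1 KO fell from 2837 to 785 in vehicle and from 3618 to 521 under CKI. With a line left out, the counts ran from 68 to 1312 for Arid1a KO, 0 to 410 for Arid2 KO and 1620 to 2450 for Smarcb1 KO in vehicle, and from 3 to 783, 0 to 233 and 1998 to 3069 under CKI. For CKI they ran from 202 to 555 in Arid1a KO, 0 to 0 in Arid2 KO, 0 to 41 in Smarcb1 KO and 2924 to 4513 in the mean. Without the 2 shallow libraries Smarcb1 KO under CKI had 613. RLE factors shifted the median of all genes by -0.16, -0.14 and -0.17 in the 3 comparisons with wildtype, against which the changes of the members may be read. The shallow library BS53965 holds 3 Dio2 and 4 Thrb counts, so their levels there were not well measured.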
